A study of Glycine max with 9 samples.

Results

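In soybean roots given sucrose, 124 genes reached their highest mean level at 20 min and were lower again at 40 min. These genes were taken from a table of 62645 gene identifiers by a fixed rule on FPKM (a fragment count corrected for the length of the transcript and the size of the library). Only the 43965 identifiers with an annotated mRNA and with no gene name other than LOC numbers were eligible. A member had a mean of at least 3 FPKM at 20 min (t20). Its log2(mean FPKM + 1) at t20 was at least 1 above that of the controls (t0) and at least 0.6 above that at 40 min (t40), and each of the 3 t20 libraries was above each of the 3 t0 libraries. In that order the criteria left 21271, 1422 and, with the separation of the libraries, 999 genes, of which 126 met the limit on the fall to t40. Of these, 2 were set aside by name, which left 124. The 0, 20 and 40 min values thus chose the members, so that their peak is a description and not a finding.

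The plants were *Glycine max* cv. Williams 82, grown for 4 weeks in diluted Hoagland solution and given 10 mM sucrose at the roots for 20 or 40 min, with plants harvested at 0 min as controls. Root tips of about 2 cm were collected from 3 plants at each time, and all 9 plants shared the cultivar and the growth time. Each plant, the unit of replication, gave 1 stranded mRNA library, here numbered 1 to 3 (t0), 4 to 6 (t20) and 7 to 9 (t40). The untreated plants were all harvested at the start, so the time since the start and the presence of sucrose cannot be told apart. In bulk root tips, fewer cells of a type and less RNA per cell cannot be told apart either.

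Sucrose is the main form in which legumes move carbon from shoot to root, and it acts in roots both as a fuel and as a signal. Plants sense it partly through kinases and transcription factors that follow the energy state of the cell. Early responses to a signal commonly include transcripts that accumulate quickly and are then removed, since the proteins of such genes are often needed only for a short time and their mRNAs can be short-lived.

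All 124 members were found in the RefSeq annotation of the Glycine_max_v4.0 build, 121 as a single locus and 3 as an assembled locus that joins a pair of neighbouring LOC names. Product names were not used here, and 3 members had a further symbol. LOC547794 is listed as TIP1-6, a tonoplast intrinsic protein, one of the aquaporins that let water through the vacuolar membrane. LOC547820 is listed as VSPB, a vegetative storage protein, a family that soybean uses to store nitrogen in vegetative tissue. LOC100170748 carries the symbol GmPPI, whose meaning is not given in the sources used here. The others are described by position, level and time course, with no role given.

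The members covered a wide range of levels. Their median of the mean FPKM was 1.58 at t0, 9.80 at t20 and 4.31 at t40. At t20 the means ran from 3.11 to 812, with 10 members at 100 or more and 64 under 10. At t0, 40 members had a mean under 1 FPKM. The rise, defined as log2(t20 mean + 1) minus log2(t0 mean + 1), had a median of 1.89 and a range of 1.00 to 4.46. The fall, defined in the same way as t20 minus t40, had a median of 1.03 and a range of 0.60 to 2.70. On the FPKM scale the typical member gave back 72.0% of its gain between 20 and 40 min. Since 1 was added before the logarithm, these differences understate the change of members with low FPKM.

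**Figure D1:**
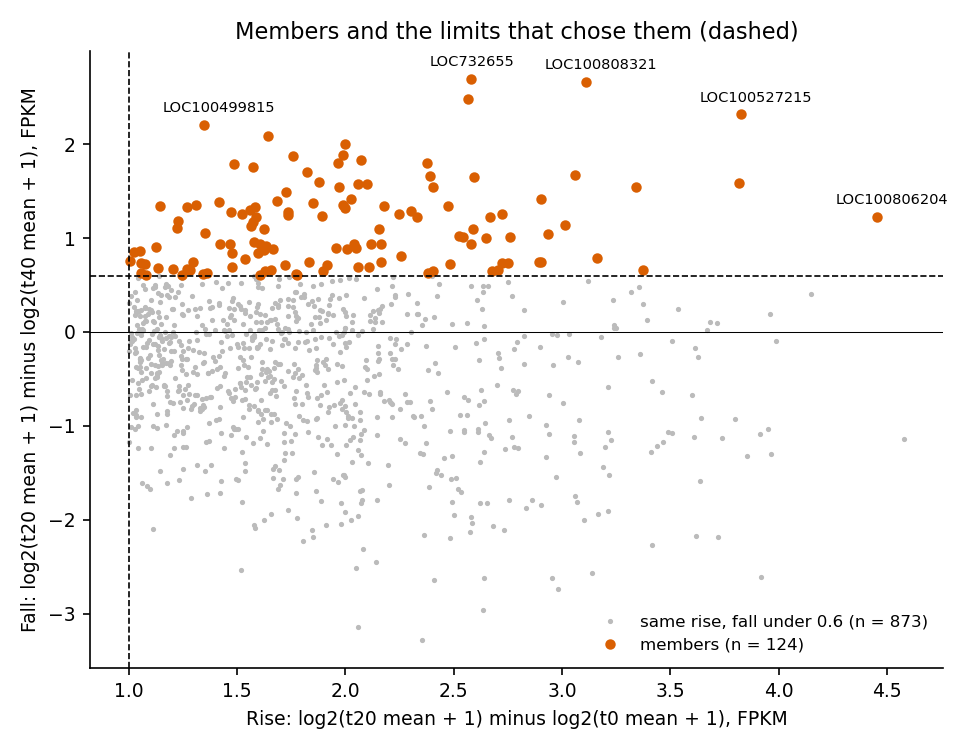
The rise (t20 over t0, x axis) and the fall (t20 over t40, y axis) of each gene, both as differences of log2(mean FPKM + 1), for the 124 members (orange) and for 873 genes that met the same limits on the rise but not on the fall (grey). Dashed lines mark the limits of 1 and 0.6 that chose the members, which run up to a rise of 4.46 in LOC100806204 and a fall of 2.70 in LOC732655.

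The most abundant member was LOC100137078, on chromosome 19 (37454549 to 37455888, minus strand, 2 exons). It had 206, 106 and 271 FPKM at t0, 659, 280 and 1498 at t20, and 358, 204 and 253 at t40. Library 6 alone held 61.5% of its t20 sum, and the t20 and t40 libraries overlapped, since library 7 was above library 5. The second was LOC100798318 (chromosome 11, 23918205 to 23923082, 13 exons), with 82.9, 19.9 and 164 FPKM at t0, 719, 243 and 656 at t20, and 335, 152 and 269 at t40. Libraries 4 and 6 were high and library 5 fell within the range of the t40 libraries. The third was LOC100810277 (chromosome 7, 16399176 to 16400843, 2 exons), with 166, 34.2 and 33.5 FPKM at t0, 353, 230 and 470 at t20, and 207, 96.6 and 188 at t40. In this gene each t20 library was above each t40 library, and library 1 was well above the other t0 libraries.

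The next members by t20 level were LOC100306661/LOC100792959, LOC100306369, LOC100775900, LOC100804761, LOC106797152, LOC100814078 and LOC100819392, with t20 means of 312 down to 101 FPKM. The first of them joins a pair of annotated genes whose values cannot be separated in a sum, but a single transcript of LOC100306661 carried 296 of the 312 FPKM at t20. At t40 that transcript averaged 151 of the 188 FPKM of the locus, against 147 at t0. A transcript without an annotation averaged 35.1 FPKM at t40, with 85.0 in library 7. LOC106797152, on chromosome 18 (1364802 to 1367850, 10 exons), was the most even of the 10 most abundant. It averaged 57.8 ± 4.43 FPKM at t0, 127 ± 21.9 at t20 and 67.6 ± 9.10 at t40 (SD, n = 3 each), and none of its libraries overlapped between t20 and either other time. LOC100814078 was the only one of the 10 with a t40 library below each of its t0 libraries, at 16.0 FPKM in library 7 against 20.9 to 49.9 at t0. The 10 most abundant members together held between 58.3% (library 4) and 69.1% (library 3) of the summed FPKM of the 124.

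**Figure D2:**
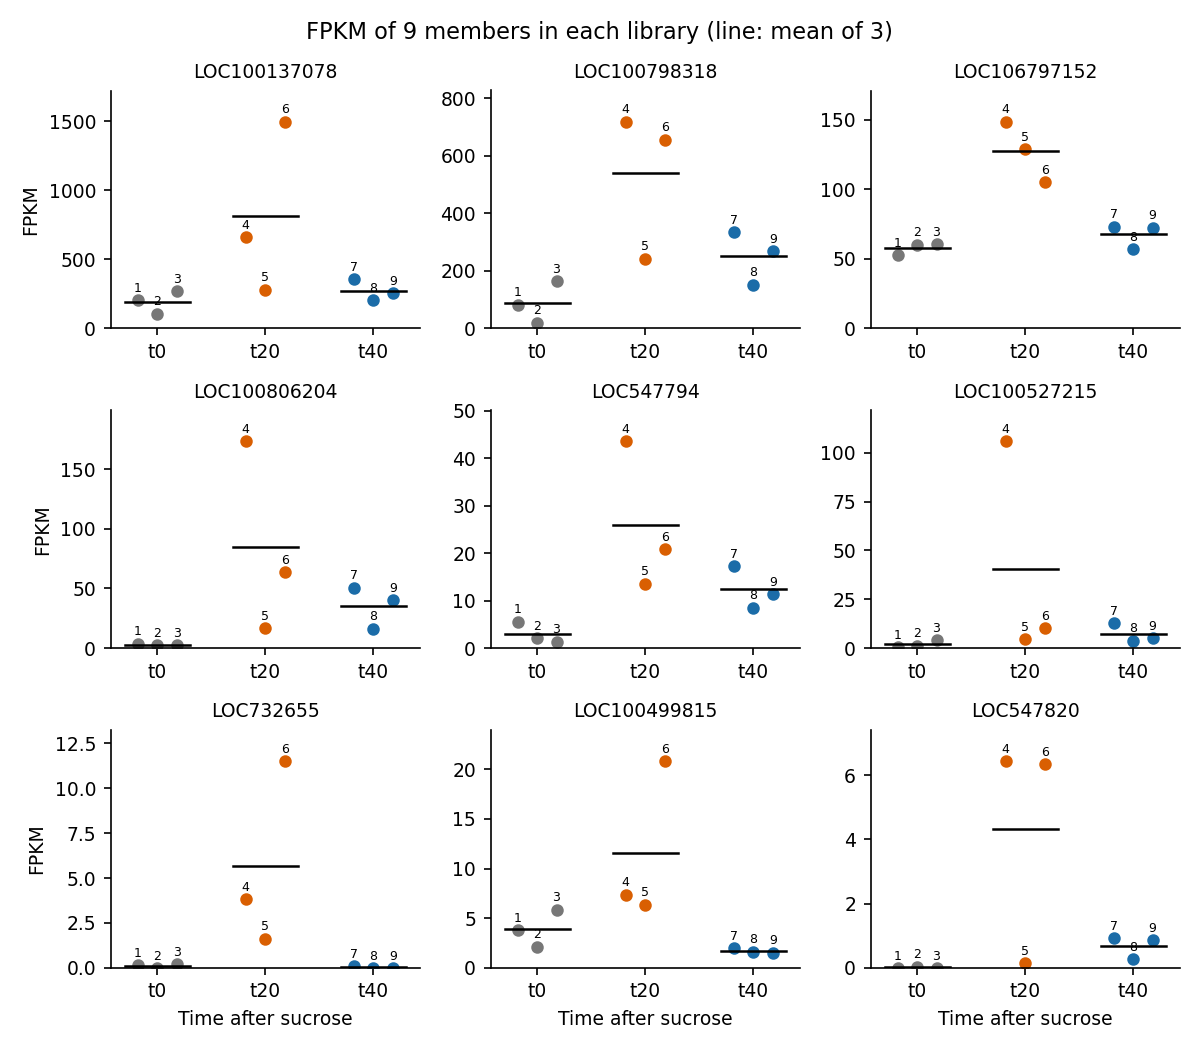
FPKM (y axis, from 0) of 9 members in each library at t0 (grey), t20 (orange) and t40 (blue), with the library number at each point and a line at the mean of 3 libraries. The t20 points of LOC106797152 lie close together at 105 to 149 FPKM, while 1 t20 library carries most of the mean in LOC100527215 (library 4) and LOC732655 (library 6).

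The largest rise was that of LOC100806204, on chromosome 15 (4088258 to 4092691, 13 exons). Its FPKM was 3.65, 2.49 and 2.56 at t0, 173, 16.7 and 63.9 at t20, and 50.6, 16.2 and 39.9 at t40. Library 4 was far above the others at t20, and library 5 lay beside the lowest t40 library, so t20 and t40 overlapped. LOC100820497 (chromosome 18, 48473897 to 48478235) had 0.184, 0 and 0.483 FPKM at t0, 26.4, 3.93 and 18.4 at t20, and 3.80, 4.03 and 6.39 at t40, again with library 5 inside the t40 range. The other members with the 10 largest rises were LOC100527215, LOC100788567, LOC100797365, LOC100820058, LOC100808321, LOC100816141, LOC100792313 and LOC100776419, with rises of 3.83 down to 2.94 on the log2(FPKM + 1) scale. In LOC100527215 and LOC100808321 the rise lay almost wholly in library 4. LOC100527215 had 106 FPKM in library 4 against 4.69 and 10.2 in libraries 5 and 6, and LOC100808321 had 23.2 in library 4 against 0.121 and 0.380. LOC100808321 had at least 1 FPKM in library 4 only.

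Among the members with a further symbol, TIP1-6 (LOC547794) had 5.59, 2.03 and 1.35 FPKM at t0, 43.6, 13.6 and 20.9 at t20, and 17.2, 8.51 and 11.3 at t40. The t20 libraries were all above t0, and library 5 fell between t40 libraries 7 and 9. The storage protein gene LOC547820 was listed at 0 in libraries 1 and 3 and had 0.0371 FPKM in library 2. At t20 it had 6.44, 0.149 and 6.35 FPKM, and at t40 0.916, 0.268 and 0.868, so that library 5 was below each t40 library. LOC100170748 had 0.370, 0.924 and 1.38 FPKM at t0, 22.1, 2.06 and 2.92 at t20, and 4.25, 0.457 and 2.60 at t40, with 81.6% of its t20 sum in library 4.

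The largest fall was that of LOC732655, on chromosome 19 (36290871 to 36293598, 5 exons). It had 0.135, 0 and 0.202 FPKM at t0 and 3.81, 1.63 and 11.5 at t20. At t40 it had 0.0760 FPKM in library 7 and was listed at 0 in libraries 8 and 9. LOC100808321, LOC100527056 and LOC100527215 followed with falls of 2.67, 2.49 and 2.32. In LOC100527056 (chromosome 15, 22336766 to 22338336) the t20 values were 4.26, 4.38 and 20.4 FPKM and the t40 values 1.91, 0.392 and 0.428, without overlap. LOC100499815, LOC100305788, LOC100526966, LOC100305752, LOC100809536 and LOC100808379 had falls of 2.21 down to 1.83.

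A model fitted to all genes put these differences beside the spread between libraries. The test was limma on log2(FPKM + 1) over the 32763 genes with at least 1 FPKM in at least 3 libraries, with Benjamini-Hochberg adjustment, and a call needed an adjusted p under 0.05 and a log2 fold change of at least 1. The filter admitted 122 of the 124 members, 5 of them only through the t20 libraries, and left out LOC100808321 and LOC547820. At t20 over t0, 34 of the 122 were called higher, beside 0.766% of all genes tested. All 122 were free of overlap between t20 and t0, which the rule demands and which 10.6% of all genes tested showed. At t40 under t20, 4 were called lower, beside 0.058% of all genes tested. In 48 of the 122 each t40 library was below each t20 library, beside 9.81% of all genes tested. Both contrasts are the ones that chose the members, so nothing is read from these counts. The 4 became 17 without library 5, 5 without library 4, 3 without library 3 and 1 without library 6. Beside them, 29, 288, 27 and 3 of all genes tested were called, against 19 with all 9 libraries. The 4 became 0 without any 1 of the others, beside 0 to 6 of all genes tested. In those settings limma had 34 to 51 members at an unadjusted p under 0.05. The fit takes the mean of the log values, and a single high library counts for less in it than in the rule. The median fitted log2 fold change of the 122 was 1.69 at t20 over t0 and -0.90 at t40 over t20.

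The 4 members called lower at t40 than at t20 are named here after their values were seen. They were LOC732655, LOC100499815, LOC100802138 and LOC100809945. LOC100802138 (chromosome 16, 1395415 to 1397749) had 0.536, 0.445 and 0.606 FPKM at t0, 4.81, 2.04 and 8.07 at t20, and 0.799, 0.732 and 0.617 at t40. LOC100809945 (chromosome 8, 2990957 to 2994580) had 0.789, 0.596 and 0.746 FPKM at t0, 4.07, 1.94 and 4.70 at t20, and 0.686, 0.644 and 0.933 at t40. In both, the t0 and t40 ranges were narrow and close to each other, and each t20 library was above every t0 and t40 library.

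How far the members had come back to the control level by 40 min is given as a description. The rule set no limit on t40 over t0, but the t0 and t40 libraries both entered it. A choice of genes low at t0 tilts this difference upward, and the limit on the fall to t40 tilts it downward. The t40 mean was above the t0 mean in all but 10 members, and the median of log2(t40 mean + 1) minus log2(t0 mean + 1) was 0.72. This difference was at least 1 in 48 members and within 0.5 of 0 in 44. Each t40 library was above each t0 library in 65 of the 124 members and in 63 of the 122 tested, beside 26.6% of all genes tested. In limma with Benjamini-Hochberg adjustment, 27 of the 122 were called higher at t40 than at t0, beside 10.5% of all genes tested, and 46 had the same fold change at an unadjusted p under 0.05. None was called lower at t40 than at t0 by limma, adjusted or at an unadjusted p under 0.05, beside 3.49% of all genes tested. Because the rule tilts this difference both ways, nothing is read from these counts. The 27 became 6 without library 7, 9 without library 2 and 12, 15 and 16 without libraries 9, 8 and 3. They became 26 without library 1 or 6 and 37 without library 4 or 5. Over all genes tested, 3441 were called with all 9 libraries and 2447 to 3857 with 1 left out.

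With the same reservation, the member with the largest t40 over t0 difference was again LOC100806204, with a log2 fold change of 3.10 ± 0.70 (SE; limma, Benjamini-Hochberg adjusted p = 0.0138). LOC100788567, on chromosome 1 (56915276 to 56916128, a single exon), had 6.01, 8.01 and 13.8 FPKM at t40, against 0.453, 0.856 and 0.376 at t0, a limma log2 fold change of 2.66 ± 0.53 (SE; adjusted p = 0.00842). LOC100775900 (chromosome 15, 3223249 to 3225059) had 137, 130 and 147 FPKM at t40, against 34.3, 17.2 and 38.9 at t0, with 2.23 ± 0.38 (SE; limma adjusted p = 0.00434). In these 3 genes every t40 library was above every t0 library. TIP1-6 was also above its t0 libraries in each t40 library, with a limma log2 fold change of 1.84 ± 0.47 (SE; adjusted p = 0.0219). For LOC106797152 the limma log2 fold change at t40 over t0 was 0.21 ± 0.19 (SE; adjusted p = 0.440), which the test does not separate from 0.

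A set of 10 members had a t40 mean below the t0 mean. In LOC100499815 (chromosome 2, 15069685 to 15070924) the libraries had 3.81, 2.12 and 5.86 FPKM at t0, 7.39, 6.36 and 20.8 at t20, and 1.96, 1.63 and 1.54 at t40. In LOC100781848 (chromosome 18, 13907758 to 13910243) they had 2.84, 2.82 and 3.82 FPKM at t0, 7.89, 5.21 and 18.8 at t20, and 2.47, 1.87 and 2.77 at t40. These were the only 2 members with each t40 library below each t0 library, a description only, since other genes were not counted. Neither passed the test at t40 over t0, where the limma log2 fold change of LOC100499815 was -0.79 ± 0.40 (SE; Benjamini-Hochberg adjusted p = 0.173) and that of LOC100781848 was -0.30 ± 0.36 (SE; adjusted p = 0.559). The other lowest ratios of t40 to t0 were those of LOC732655, LOC100305788 and LOC100305992.

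The members varied more at t20 than at the other times. The rule helps to fix this, since a single high t20 library raises the t20 mean that chose them. The spreads and counts of this paragraph were not computed for other genes, so they are descriptions only. The median coefficient of variation over the 3 libraries was 36.5% at t0, 61.2% at t20 and 29.6% at t40. Library 5 was the lowest t20 library in 109 of the 124 members, library 6 in 11 and library 4 in 4. The highest t20 library was library 6 in 62 members, library 4 in 61 and library 5 in 1, LOC100795192. In 81 members a single t20 library held over 50% of the t20 sum, and in 49 library 5 was below the t40 mean. The median member stood 2.10 above the t0 mean in library 4, 0.89 in library 5 and 2.12 in library 6 on the log2(FPKM + 1) scale, and 0.97, 0.52 and 0.63 in t40 libraries 7, 8 and 9. LOC102663872 was the most even at t20, with 13.9, 12.2 and 15.2 FPKM.

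**Figure D3:**
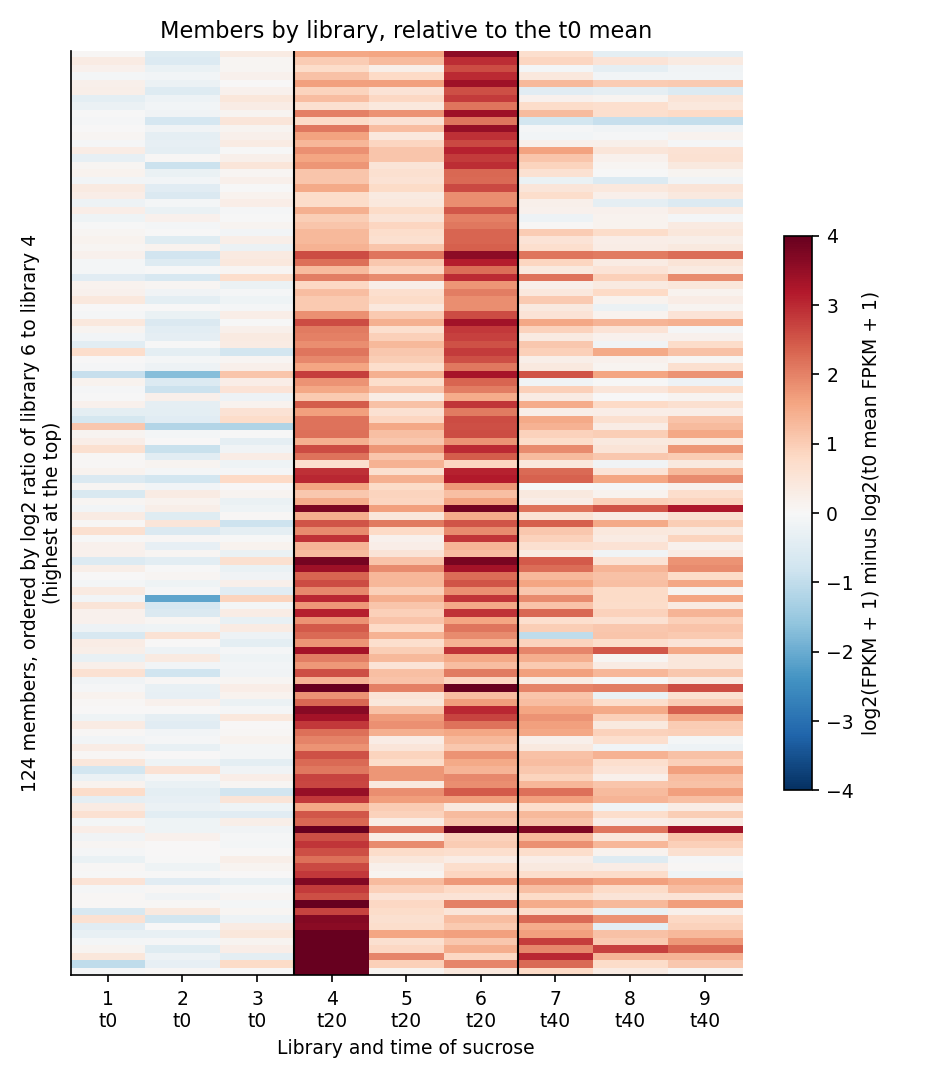
The 124 members (rows) in the 9 libraries (columns, grouped by time), coloured by log2(FPKM + 1) minus log2(t0 mean + 1), with colours saturating at -4 and 4. Rows run from the highest ratio of library 6 to library 4 at the top to the lowest at the bottom, and library 5 is paler than libraries 4 and 6 in most rows.

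Libraries 4 and 6 were high for partly different members. In 29 members library 6 had at least 2 times the FPKM of library 4, in 25 library 4 had at least 2 times that of library 6, and 70 were in neither set. Among the 873 genes with the same rise but a smaller fall or none, 2.52% were led by library 6 and 28.3% by library 4 in this sense, and among all genes tested 4.54% and 6.16%. These shares are given without a test, because the t20 libraries chose both sets. With 1 added to each FPKM, the extreme ratios were those of LOC100527056, with 20.4 FPKM in library 6 against 4.26 in library 4, and LOC100808321, with 0.380 in library 6 against 23.2 in library 4.

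The levels at t40 of these sets are given without a test, because the t0, t20 and t40 libraries all chose the members. For the members led by library 6 the median of log2(t40 mean + 1) minus log2(t0 mean + 1) was 0.28, against 1.08 for those led by library 4 and 0.79 for the 70 in neither set. Of those led by library 6, 8 of 29 had a t40 mean below the t0 mean, against 1 of 25 for library 4 and 1 of 70 in neither set. Each t20 library was above each t40 library in 23 of 29, against 2 of 25 and 23 of 70, beside 9.81% of all genes tested, and the limit on the fall helps to fix these counts. Of the members described above, LOC100137078, LOC732655, LOC100499815, LOC100781848 and LOC100527056 were led by library 6. TIP1-6, LOC100806204, LOC100527215 and LOC100170748 were led by library 4.

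**Figure D4:**
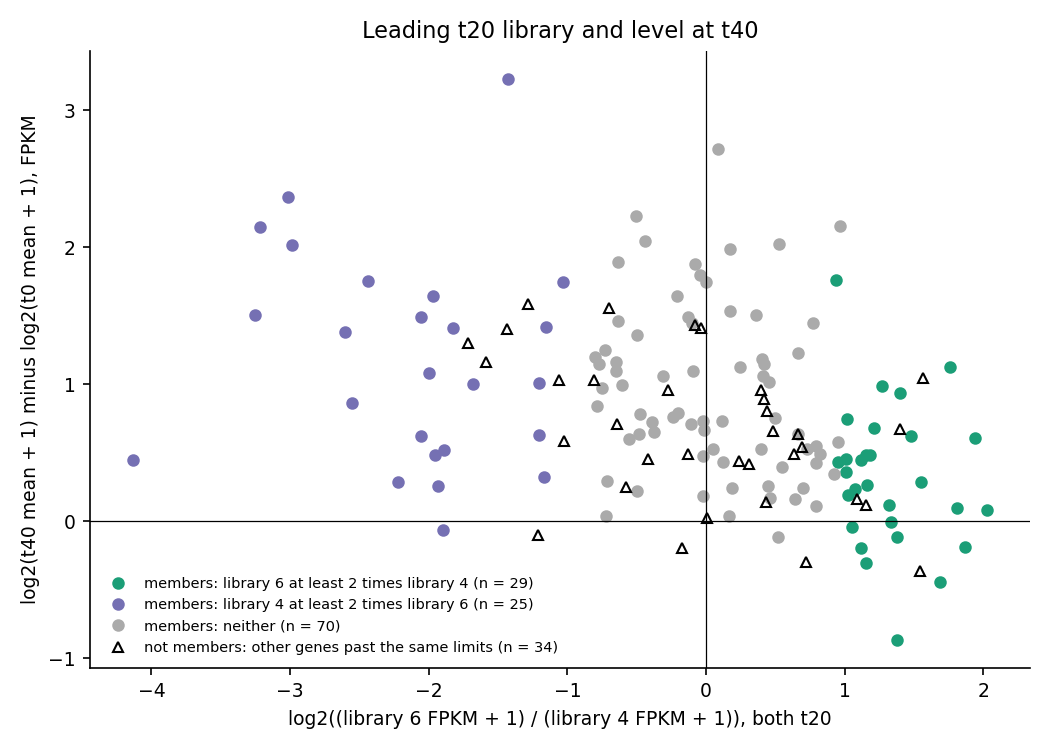
Difference between t40 and t0 means on the log2(FPKM + 1) scale (y axis) against the log2 ratio of t20 library 6 to t20 library 4 (x axis, 1 added to each FPKM), with 1 point for each of the 124 members. Members led by library 6 (green, n = 29) centre on 0.28 and those led by library 4 (violet, n = 25) on 1.08, while open triangles mark the 34 genes that met the same limits but were not eligible as members.

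Genes of photosynthetic tissue were also highest in library 6. The list of such markers (chlorophyll a/b-binding proteins, the small and large subunits of Rubisco and the plastid-encoded photosystem proteins psaA, psaB and psbA) had 8 genes in the table, and all 8 were highest in library 6. Their summed FPKM was 355, 149 and 142 at t0, 243, 164 and 675 at t20, and 139, 123 and 107 at t40. No marker of the list was at 0 in every library, and CAB3 and RBCS2 made up most of the sum. RBCS2 had 332 FPKM in library 6, close to the 309 in t0 library 1. Only 4 of the 8 had at least 1 FPKM in at least 3 libraries. LHCB1-7, psaA, psaB and psbA peaked at only 0.233 to 0.421 FPKM. The part of these markers' tissue in the levels of the members was not tested. Root markers were EXPB2, auxin efflux carriers of the PIN family and nitrate transporters, 17 in the table, 2 of them at 0 in every library. They summed to 174, 153 and 182 FPKM at t0, 260, 154 and 149 at t20, and 268, 216 and 251 at t40. The nitrate transporter NRT2 alone had 110 FPKM in library 4 and 141, 82.5 and 118 at t40, against 0.902 to 17.6 in the other libraries. PIN1A, PIN1B and PIN1C went the other way, with means of 25.9, 57.5 and 24.6 FPKM at t0 and 15.9, 30.1 and 18.6 at t40. Of 8 nodule genes, 4 including the leghemoglobin genes LBA, LBC1 and LBC3 were at 0 in every library, and NOD33 made up most of the remaining sum of 98.3 to 439 FPKM.

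The limits of the rule also cover genes with a symbol, which were not eligible as members. Without the condition on names 160 genes met them, 31 with a symbol and 3 of other kinds beside the 124 members and the 2 set aside. The highest of the 31 at t20 were PIP2-10/PIP2-11, a joined locus of plasma membrane aquaporins, with means of 96.4, 304 and 131 FPKM at t0, t20 and t40, and AS1, asparagine synthetase, with 31.5, 187 and 94.4. CAB3, a chlorophyll a/b-binding protein of the light-harvesting antenna, had 35.7, 168 and 27.5, and TIP2-4, a tonoplast aquaporin like TIP1-6, had 42.5, 112 and 43.1. LBD23, of the LBD transcription factors, had 23.7, 70.1 and 38.0, and PIP2-12/PIP2-9, a further joined aquaporin locus, had 13.2, 42.8 and 26.6. SAN1A, BBI-1, ALDH12A2 and the joined LOC100806478/MIR10191 completed the 10 highest, with t20 means of 41.8 to 65.7 FPKM. Of the 34 genes outside the members, library 6 led in 5 and library 4 in 7.

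The members were spread over all 20 chromosomes, with 3 to 10 on each. Only 1 pair lay within 50 kb of each other, LOC100806672 (823216 to 825888) and LOC100809323 (852711 to 855801) on chromosome 20, both on the plus strand. LOC100806672 had 4.04, 3.16 and 2.18 FPKM at t0, 13.1, 5.53 and 9.78 at t20, and 6.66, 5.74 and 5.07 at t40. LOC100809323 had 0.679, 0.637 and 0.552 at t0, 8.45, 2.00 and 4.69 at t20, and 2.67, 3.27 and 2.64 at t40. Both were highest in library 4 and lowest in library 5 among the t20 libraries, and library 5 was below each t40 library in LOC100809323 and between t40 libraries 8 and 9 in LOC100806672.

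Gene structure was not part of the rule beyond the need for an annotated mRNA, so the members are set beside the 27871 eligible genes tested, which also met it. The leading transcript of a member, the one with the highest mean FPKM, had a median length of 1242.5 bases, against 1513 in the 873 genes with a smaller fall and 1733 in the eligible genes tested. More than 1 transcript was assembled for 32.3% of members, against 52.8% of the 873 genes and 57.7% of the eligible genes tested. A curated RefSeq transcript (an NM accession) was present in 45.2% of members, against 24.6% of the 873 genes and 18.5% of the eligible genes tested. Among the members led by library 6, 21 of 29 had one and the median leading transcript was 946 bases long, against 9 of 25 and 1493 bases for library 4. A leading transcript of a single exon was found in 16.9% of members, 25.7% of the 873 genes and 11.8% of the eligible genes tested. These shares are descriptions and were not tested. The leading transcript changed between times in 12 members, and 4 members, among them LOC100775900 and LOC100814078, had over 50% of their t20 FPKM in transcripts without an annotation. Another identifier overlapped 15 members, 1 of them (LOC100527925) on the same strand. FPKM is divided by transcript length, and no sequence was at hand to see which members share reads with near-identical copies elsewhere in the genome.

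The limits cut through a continuous range of genes. At the limit on the fall, LOC100804632 (41.7 FPKM at t20 and 27.1 at t40, fall of 0.603) and LOC100784834 (6.38 and 3.86, 0.604) were just inside, and LOC100784966 and LOC100788156 were just outside with falls of 0.597 and 0.596. At the limit on the rise, LOC100795192 and LOC100816119 were inside with 1.00 and 1.02, and LOC100815666 and LOC100785165 outside with 0.990 and 0.988. At the limit on the t20 mean, LOC100799721 and LOC100305786 were inside with 3.11 and 3.16 FPKM, and LOC100811386 and LOC100802560 outside with 2.84 and 2.83. At the separation of the libraries, the lowest t20 library of LOC100786699 had 5.49 FPKM against 5.46 in the highest t0 library, and that of LOC100808581 had 1.69 against 1.61. Outside stood LOC100811729, with 12.1, 0 and 0.269 FPKM at t20 and 0 in each t0 library, and LOC100776726, with 15.8, 0.149 and 0.767 at t20 against 0.0904, 0 and 0.169 at t0.

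Which genes counted as members rested in part on single libraries, above all those of t20. Without library 5, 345 genes met the rule, among them 123 of the 124 members. Without library 4, 74 of the members still met it and 11 other genes did, and none of the 25 members led by library 4 was left. Without library 6, 83 members met it, 9 of them from the 29 led by library 6, and so did 50 other genes. The led sets were defined by libraries 4 and 6, which helps to fix how many of each set are left. With a t20 library left out, the separation from t0 is also easier to meet. Leaving out any 1 of the t0 or t40 libraries kept 103 to 123 of the members. A total of 41 members met the rule in each of the 9 sets with 1 library left out, among them LOC100137078, LOC100798318, LOC100810277, LOC106797152 and LOC100814078. None of the 41 was led by library 4 and 9 were led by library 6. The counts of calls moved as well. The 34 members called higher at t20 became 104 without library 5 and 0 without library 2, 4, 6 or 9, and they became 1, 4, 13 and 4 without libraries 1, 3, 7 and 8. With those counts of 0, limma at an unadjusted p under 0.05 still had 100 to 116 members. Over all genes tested the same calls moved too, from 251 to 1965 without library 5. They fell to 0 without library 2, 4 or 6 and to 8 without library 9. Without libraries 1, 3, 7 and 8 they were 19, 34, 73 and 23.

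**Figure D5:**
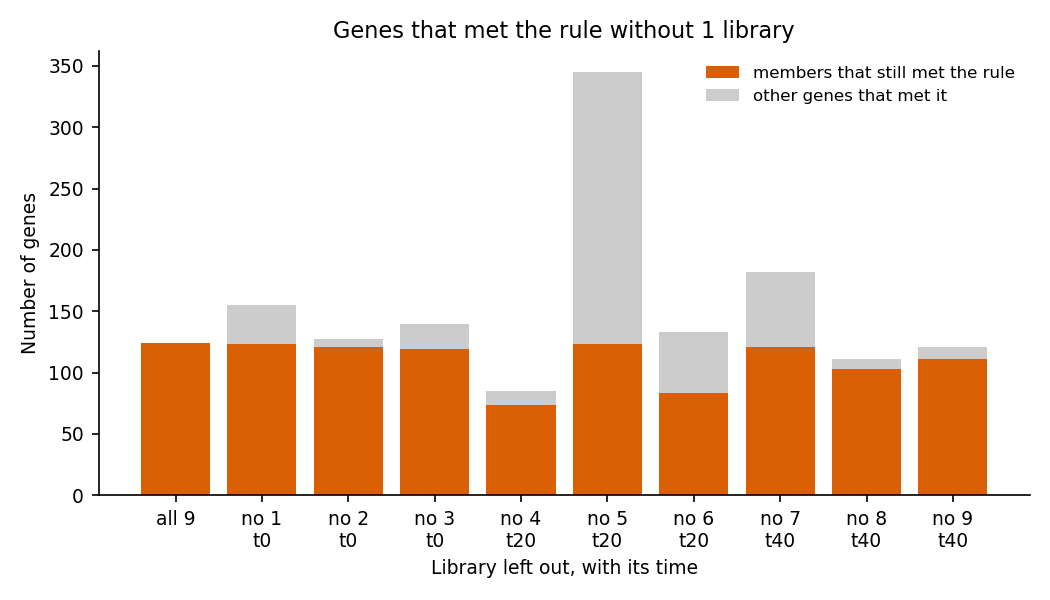
Number of genes (y axis) that met the rule with all 9 libraries and with each library left out (x axis, with its time), divided into the 124 members (orange) and other genes (grey). The bar without library 5 reaches 345 genes, and the bar without library 4 is the lowest at 85.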

How the data were processed

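The submitters' processing notes name bcl2fastq 2.20, FastQC, Trimmomatic 0.32, HISAT2 and StringTie. The authors trimmed the reads, aligned them to the Glycine_max_v4.0 genome, assembled transcripts and deposited 1 table of 119600 transcripts with an FPKM for each transcript and library. The authors' table also gives exon numbers and lengths. Reads are divided by transcript length and library size in FPKM, and since no counts were used, the number of reads behind each value is unknown. The paper lists read pairs and alignment rates for each library. In that list, every t40 library aligned at a lower rate than every t0 and t20 library. The part of this in the levels at t40 was not tested. A further 9 columns, 1 for each library, hold coverage and were not used.

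FPKM of transcripts with the same gene identifier were summed with pandas 2.3.3 in Python 3.11.15. An FPKM of 0 means only that a gene is listed at 0. Genes with at least 1 FPKM in at least 3 libraries were fitted with limma 3.58.1 in R 4.3.3 on log2(FPKM + 1), with all 9 libraries, a variance trend and Benjamini-Hochberg adjustment. The fit was tried on simulated data, with independent noise and an equal shift of all t20 libraries in genes of low spread. The t20 libraries of the members were uneven, so that trial says nothing of the fit for them. The columns give the time but no replicate number, so the libraries carry the numbers of the table.

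Members, marker lists and the genes to be named were chosen with earlier results of these data known. Named were the 10 members with the highest t20 mean, the 10 largest rises, the 10 largest falls, the 5 lowest ratios of t40 to t0, members within 50 kb of each other, the 2 genes on each side of each limit, the members with a further symbol and the 10 highest genes with a symbol; others are given as examples or counts of 5 or fewer. Marker lists were photosynthetic, nodule and root genes. Alternatives were other pseudocounts, filters, scaling, fits and sets of libraries. No sequences were analysed here.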

Additional observations from a re-analysis of the deposited data

How the results depend on the processing

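The number of genes that met the rule was 151 and 138 with pseudocounts of 0.1 and 0.5, 125 after quantile normalization and 114 with the group median in place of the mean, the last chosen after seeing the data, and it ranged from 85 to 345 with 1 library left out. With the median, 82 of the 124 members met the rule, and 105 did after quantile normalization. Members called higher at t20 than at t0 (34) numbered 55 with a pseudocount of 0.1, 15 after quantile normalization, and 0 without the filter or with only the 2 groups in the fit, where 115 had an unadjusted p under 0.05 in limma in either case. They numbered 0 to 104 with 1 library left out. All genes so called numbered 251 in the main fit, 633 with a pseudocount of 0.1 and 103 after quantile normalization. They numbered 0 without the filter or with only the 2 groups in the fit, and 0 to 1965 with 1 library left out. Members called lower at t40 than at t20 (4) numbered 0 with a pseudocount of 0.1, without the filter, with a filter of 3 FPKM and with only the 2 groups in the fit, where limma had 49, 41, 30 and 43 at an unadjusted p under 0.05, and 0 to 17 with 1 library left out, the most without library 5. All genes so called numbered 19 in the main fit and 1, 2, 3 and 5 in those settings in turn. With 1 library left out they numbered 0 to 288, the most without library 4. Members called higher at t40 than at t0 (27) numbered 13 without the filter, 17 after quantile normalization, 43 with only the 2 groups in the fit, and 6 to 37 with 1 library left out. The fewest were 6 without library 7, 9 without library 2 and 12, 15 and 16 without libraries 9, 8 and 3. All genes so called numbered 3441 in the main fit, 2931 without the filter and 2690 after quantile normalization. They numbered 3640 with only the 2 groups in the fit, and 2447 to 3857 with 1 library left out. Members called lower at t40 than at t0 remained at 0 in each of these settings, beside 540 to 1621 of all genes. The causes were not tested.

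Of the members named by the rule, the fall turned negative without library 4 in LOC100820058 (-1.18), LOC100786699 (-0.79), LOC100784834 (-0.36) and LOC100808321 (-0.16), whose highest values with 1 library left out were 1.28, 1.17, 0.98 and 3.19, all without library 5, and with the group median in LOC100820058 (-0.88), LOC100786699 (-0.57) and LOC100784834 (-0.21). No rise among the members recomputed changed sign in the settings run. No paired analysis was possible because the columns of the table carry no replicate number. Planned counts of promoter motifs and of close protein copies were not run, since no sequences were used here.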
